A study of Mus musculus with 24 samples.

Results

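Sh3bp2, the gene changed in the mouse model of cherubism, was followed here together with the genes that set the amount of its protein and the partners through which it signals. The members were taken by symbol: the adaptor gene Sh3bp2, the tankyrase genes Tnks and Tnks2, the ubiquitin ligase gene Rnf146, the tyrosine kinase genes Syk and Abl1, the phospholipase genes Plcg1 and Plcg2, and the exchange factor genes Vav1 and Vav3. All 10 were among the 54232 gene identifiers of the count tables, and all 10 passed the filter on low counts in every comparison.

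Stromal cultures of bone marrow were the source of the RNA. The donors were female C57BL/6 mice, 6 to 8 weeks old, that were wild type (WT) or Sh3bp2KI/KI, a knock-in on both copies of the gene whose libraries are labelled CBM. Cells were grown to day 7 in MEM-alpha with 10% fetal bovine serum and sorted. The gate CD45+Sca1+ gave the population labelled hematopoietic, and CD45-Sca1+ gave the one labelled mesenchymal. Each genotype had 6 libraries in each population, 24 in all, with 9875390 to 15826711 counts per library. Nothing in the labels says that the 6 libraries of a group stem from different animals or dishes. The p-values therefore measure the spread between these libraries only, and that spread may be technical. They also do not give the base changed in the knock-in, so the level of Sh3bp2 RNA does not check the genotype. A prefix of the file names, C1 or C2, divides each group into 3 and 3 libraries, here called sets. No label says what it marks, and it was a term in the fits except where stated.

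SH3BP2 is a scaffold protein of blood cells that brings the kinases SYK, SRC and ABL together with phospholipase C gamma and VAV proteins at activated immune receptors and at receptors of osteoclast precursors. Its amount is normally kept low by tankyrases, poly-ADP-ribose polymerases that mark it for the ubiquitin ligase RNF146, which sends it to the proteasome. Tankyrases recognise a short stretch of their substrates, and in people the mutations of cherubism, a childhood disease of the jaw, fall in this stretch of SH3BP2, so that the altered protein escapes destruction. This control acts on protein, which RNA counts do not measure.

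The stretch that tankyrase recognises is shown at the level of the coding sequence because it is where the adaptor and its degradation machinery meet. The codons searched were those for arginine, any pair of residues, proline, aspartate and glycine, in 1 transcript per gene of the GENCODE M21 annotation of GRCm38. They were found in 165 of 21721 translated genes (0.76%), and in 2 of the 10 members, Sh3bp2 and Abl1. In the sequences below, written 5′ to 3′ on the coding strand, the 18 bases of the motif are in capitals.
Sh3bp2: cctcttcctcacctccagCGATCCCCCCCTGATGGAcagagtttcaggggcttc
Abl1: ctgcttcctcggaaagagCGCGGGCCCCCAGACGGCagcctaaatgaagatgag
The Sh3bp2 motif spans codons 413 to 418 of 559, in exon 9 of 13, at chr5:34560345-34560362 on the plus strand, and the 18 bases before it in the transcript lie across a splice junction. The Abl1 motif spans codons 577 to 582 of 1123, in exon 11 of 11, at chr2:31800256-31800273 on the plus strand. Both are reference sequence and say nothing of the knock-in allele. A match is a description of these codons and not of a bound protein, and binding was not tested. The members were built around Sh3bp2, a tankyrase substrate, so the 2 of 10 is partly built in. Of a list of 21 tankyrase partners and substrates, 4 held the same strict motif, namely Numa1, Lnpep, Tnks1bp1 and Fnbp1, and tankyrase is known to bind looser forms as well.

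The members split into genes confined largely to the hematopoietic population and genes read in both. Levels are given as CPM, the counts of a gene relative to the scaled library total, set over all 24 libraries, and differences as log2 fold changes with their standard error (SE) from edgeR's quasi-likelihood test, with p adjusted by Benjamini-Hochberg over all genes tested and a threshold of 0.05. Of the 10 members, 8 were lower and 2 higher in wild type mesenchymal than in wild type hematopoietic libraries, where 73.5% of 15389 genes tested were called in either direction (38% lower, 35.4% higher). In knock-in libraries 6 were lower and 3 higher, against 73% of genes called (39.1% lower, 33.9% higher), and Abl1 was not called. The median log2 difference of the members was -2.69 in each genotype, beside -0.03 and -0.07 over all genes. With so many genes called, a call between the populations says little by itself, and the size of the differences carries the description. In bulk RNA of this kind fewer cells of a type and less RNA per cell cannot be told apart.

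**Figure D1:**
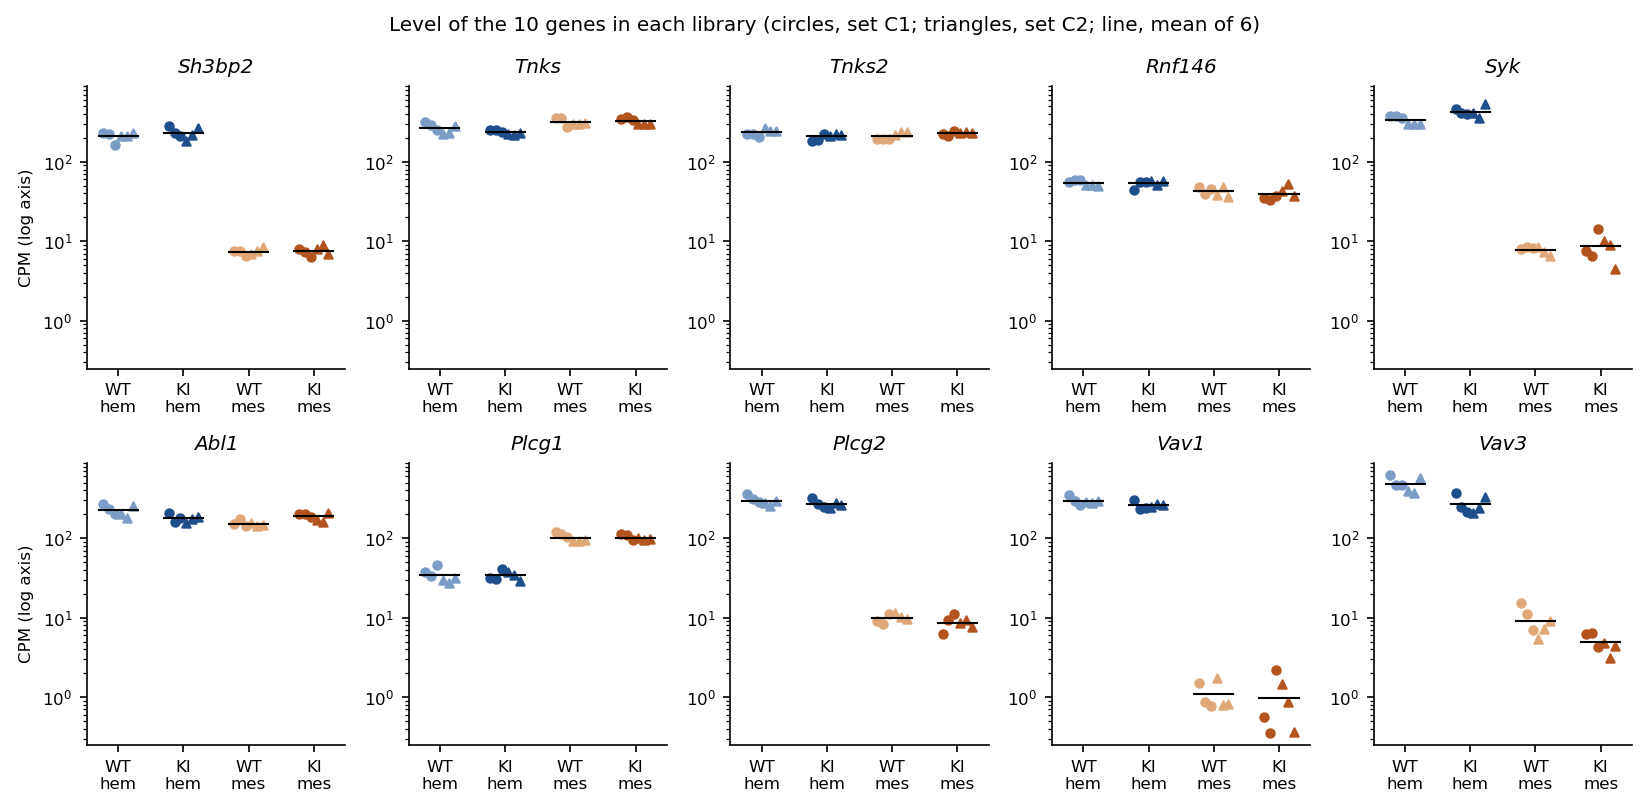
CPM of each of the 10 genes on a log axis in the 24 libraries, by genotype (WT, wild type; KI, knock-in) and population (hem, hematopoietic; mes, mesenchymal); each point is 1 library, circles and triangles mark the sets C1 and C2, named after a prefix of the file names, and the line is the mean of 6. Sh3bp2, Syk, Plcg2, Vav1 and Vav3 sit far lower in mesenchymal libraries, Plcg1 sits higher, and the remaining 4 genes lie close in all groups.

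Sh3bp2 (ENSMUSG00000054520, chr5:34525838-34563641, plus strand) was read at 162.6, 218.5 and 233.8 CPM (lowest, median and highest of 6) in wild type hematopoietic libraries and at 184.7, 224.8 and 285.8 CPM in knock-in ones. The 2 groups overlapped, with means of 211.9 ± 25.6 and 232.8 ± 36.5 CPM (SD, n = 6 each). The log2 fold change of the knock-in was 0.15 (SE 0.117, adjusted p = 0.448 by edgeR), with an interval of 2 SE from -0.08 to 0.38. The lowest library, wild type replicate 3, also had the highest estimated share of stromal RNA in its group, 18.95% against 5.455% to 9.421% in the other 5. In the knock-in group the highest share, 21.59%, was that of replicate 3, at 213.4 CPM of Sh3bp2. The lowest knock-in library, replicate 4 at 184.7 CPM, had a share of 9.677%. With its stromal share subtracted from every library the fold change was 0.16 (adjusted p = 0.31). In the mesenchymal population the wild type libraries read 6.46, 7.49 and 8.55 CPM and the knock-in libraries 6.25, 7.66 and 8.89 CPM. The log2 fold change there was 0.04 (SE 0.124, adjusted p = 0.897 by edgeR), with an interval from -0.21 to 0.29. A difference of Sh3bp2 RNA between the genotypes was thus not detected in either population, within the sizes these intervals give. The interaction, which is the knock-in difference in mesenchymal minus that in hematopoietic libraries, was -0.11 for Sh3bp2 (SE 0.154, adjusted p = 0.789 by edgeR).

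Between the populations Sh3bp2 differed by a log2 of -4.83 (SE 0.121, adjusted p = 1.48e-19) in wild type and -4.94 (SE 0.122, adjusted p = 1.25e-19) in knock-in cells. The mesenchymal libraries held 3.5% and 3.26% of the hematopoietic level. Each rested on 77 to 134 counts per mesenchymal library. To set this beside the leukocyte RNA of the mesenchymal libraries, the share of leukocyte RNA was estimated from 14 leukocyte markers in each mesenchymal library. It was 0.428% ± 0.161 (SD, n = 6) in wild type and 0.627% ± 0.338 in knock-in libraries, over a range of 0.179% to 0.969%. Sh3bp2 lay above the level that its library's share would give in 6 of 6 libraries of each genotype. That level averaged 0.907 and 1.46 CPM. The share is a median, so the markers themselves lie on both sides of it. Arhgdib, a marker above it, averaged 6.764 CPM in wild type mesenchymal and 173.5 CPM in wild type hematopoietic libraries. Here and for the genes below, a level above the share thus does not tell the source of the RNA, which was not tested. Ptprc encodes the sort marker CD45 and stood at 0.375% and 0.418% of its hematopoietic level. It lay above the level of its library's leukocyte share in 2 of 6 wild type and 0 of 6 knock-in libraries. Ptprc is among the 14 markers that set this share, so its closeness to the share is partly built in.

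**Figure D2:**
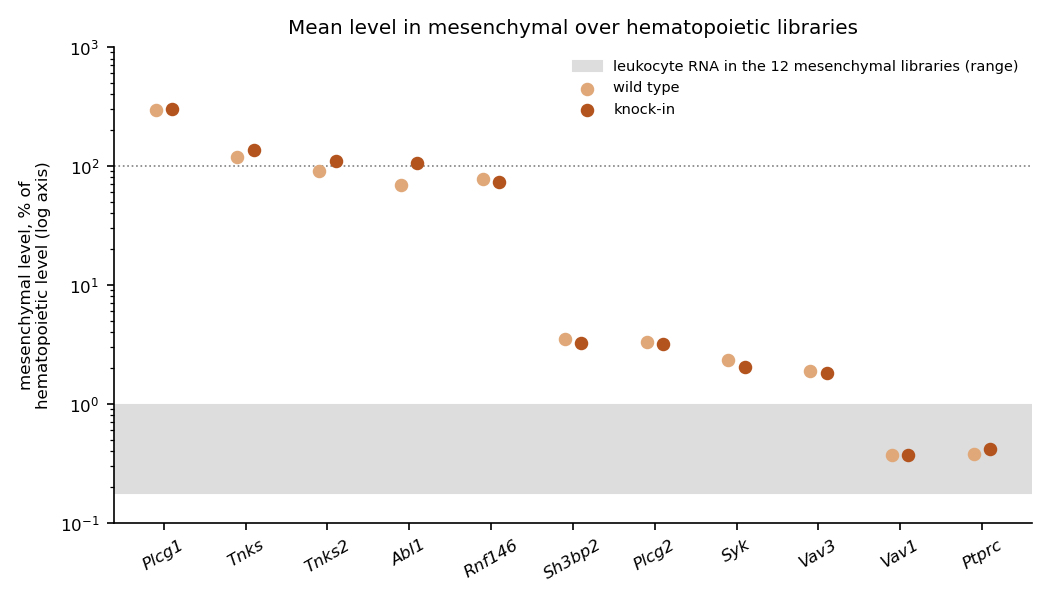
Mean level of each member and of Ptprc in mesenchymal libraries as a percent of its mean in hematopoietic libraries of the same genotype, on a log axis; the grey band is the range of the estimated leukocyte RNA in the 12 mesenchymal libraries, 0.179% to 0.969%, and the dotted line marks equal levels. Vav1 and Ptprc fall inside the band, Sh3bp2, Plcg2, Syk and Vav3 lie above it at 1.82% to 3.5%, and the other 5 genes lie at 68.5% or more. The band comes from medians over leukocyte markers, and Ptprc is among these markers.

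The tankyrase genes were read at like levels everywhere. Tnks (chr8:34826460-34965690, minus strand), which encodes tankyrase 1, ran from 224.4 through 268.6 to 317.4 CPM in wild type and from 217.4 through 234.2 to 253.1 CPM in knock-in hematopoietic libraries. In mesenchymal libraries it ran from 272.3 through 304.2 to 360.1 CPM in wild type and from 295.7 through 315.9 to 370.8 CPM in knock-in ones. The genotypes overlapped in both populations, with log2 fold changes of -0.16 (SE 0.078, adjusted p = 0.201) and 0.04 (SE 0.076, adjusted p = 0.826). Tnks was higher in mesenchymal cells by a log2 of 0.25 (adjusted p = 0.00475) in wild type and 0.45 (adjusted p = 8.86e-06) in knock-in cells. In wild type libraries of set C1 alone the difference was 0.23 and was not called (adjusted p = 0.148).

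Tnks2 (chr19:36834232-36893477, plus strand), which encodes tankyrase 2, ran from 206.3 through 235.1 to 266.8 CPM in wild type and from 183.7 through 214.9 to 226.8 CPM in knock-in hematopoietic libraries. In mesenchymal libraries the values were 194.3, 205.3 and 240.2 CPM in the wild type and 210.1, 231.7 and 245.5 CPM in knock-in ones. Groups overlapped in both populations, and the knock-in differences of -0.16 (SE 0.064, adjusted p = 0.125) and 0.13 (SE 0.064, adjusted p = 0.266) were not called. Their difference was called, with an interaction of 0.29 (SE 0.087, adjusted p = 0.0439 by edgeR), in a comparison where 7.28% of 15389 genes were called, 2.92% higher and 4.36% lower. Of the members Tnks2 and Abl1 were the 2 called, both higher. That call was lost in 16 of the 24 fits that leave out 1 library (adjusted p up to 0.0823), without the set term (0.126), without the filter on low counts (0.214) and in either set alone. The small population differences of Tnks2, -0.15 in wild type and 0.14 in knock-in cells, lost their calls as easily, under 7 of 8 and 5 of 8 other settings.

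Rnf146 (chr10:29344176-29362442, minus strand), the ligase that reads poly-ADP-ribose and ubiquitinates tankyrase substrates, had values of 50.1, 53.11 and 59.3 CPM in the wild type and 44.44, 55.04 and 57.32 CPM in the knock-in hematopoietic libraries. The log2 fold change was 0.00 (-0.001, SE 0.079, adjusted p = 0.993), with an interval from -0.16 to 0.16. In mesenchymal libraries Rnf146 read 36.05, 42.4 and 47.97 CPM in the wild type and 33.4, 36.74 and 52 CPM in knock-in ones (log2 -0.11, SE 0.119, adjusted p = 0.657). It was lower than in hematopoietic cells by 0.35 and 0.44 on the log2 scale (-0.351, adjusted p = 0.00382, and -0.44, adjusted p = 0.000543), calls that set C2 alone did not give (adjusted p = 0.0634 and 0.0522). Of its 4456 exon bases 3129 (70.2%) overlap exons of Echdc1 on the opposite strand, so its level depends on the strand setting of the counting. That setting is not given in the sources used here. Of 491 genes lying wholly inside exons of the opposite strand 271 (55.2%) had at least 1 count over the 24 libraries. Only 59 had at least 100. Counting without strand would have left such reads as ambiguous under the same annotation.

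Of 14 ADP-ribose and ubiquitin enzymes around tankyrase 1 was called in hematopoietic cells, with 4 at an unadjusted p under 0.05 and 2 called by DESeq2, beside 15.9% of all genes called by edgeR. The 1 was Parp1, the founding poly-ADP-ribose polymerase, whose means were 134 (wild type) and 110.7 CPM (knock-in; log2 -0.26, SE 0.073, adjusted p = 0.0271). By edgeR 0 of the 14 were called in mesenchymal cells and 0 for the interaction, with 1 and 3 at an unadjusted p under 0.05 and 0 and 1 called by DESeq2, where 7.27% and 7.28% of all genes were called. The list's median log2 fold change was -0.03 between the hematopoietic genotypes, -0.02 between the mesenchymal ones and -0.03 as interaction, beside 0 for all genes in each. Axin1, the scaffold of the beta-catenin destruction complex and the best known tankyrase substrate, was not called in either population (adjusted p = 0.0804 and 0.0967). It was singled out after its values were seen.

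Of the 21 tankyrase partners and substrates, 2 were higher and 1 lower among 20 tested in knock-in hematopoietic cells. In mesenchymal cells 2 were higher and 2 lower among 21. The shares called over all genes were 15.9% and 7.27%. Mcl1, a survival protein of the BCL2 family, averaged 317.7 CPM in the wild type and 455.2 CPM in the knock-in hematopoietic libraries, with no overlap (log2 0.53, SE 0.093, adjusted p = 0.00203). Amotl1, an angiomotin that binds junctions and YAP, was higher in both populations, by 0.49 (adjusted p = 0.0418) and 0.37 (adjusted p = 0.0233). Nkd2, an inhibitor of WNT signalling, was lower in both, by log2 differences of -0.94 (adjusted p = 0.0483) and -0.92 (adjusted p = 0.000631). In mesenchymal cells Grb14, an adaptor of the insulin receptor, was also lower (-0.79, adjusted p = 0.0268). Fnbp1, a membrane-bending protein that carries the motif printed above, was higher (0.30, adjusted p = 0.04).

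Across all members, 1 was higher and 2 were lower of the 10 in knock-in hematopoietic cells, where 15.9% of 14030 genes were called (9.01% higher, 6.89% lower). In mesenchymal cells 1 was higher and 1 lower, against 7.27% of 13867 genes (3.44% higher, 3.83% lower). With only 10 members these counts cannot be told apart from the background shares, and no test of the set was run. The members' median log2 fold change was -0.14 in hematopoietic and 0.02 in mesenchymal cells, beside 0 over all genes in each. The called genes were Syk, Abl1 and Vav3.

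Other cell markers moved with genotype in these libraries, where 15.9% of hematopoietic and 7.27% of mesenchymal genes tested were called. In the hematopoietic population 9 of 10 osteoclast markers were called higher in knock-in libraries, with summed levels of 101 to 1794 CPM in wild type and 1956 to 5239 CPM in knock-in libraries. Of 15 macrophage and monocyte markers 3 were higher and 8 lower (14580 to 22300 against 17790 to 26280 CPM in sum). Of 7 B lineage markers tested 2 were lower (88.5 to 490.9 against 52.7 to 165.8 CPM for the 8 listed, with Vpreb3 at 0 in wild type libraries). None of 8 T and NK cell markers passed the filter (0.199 to 2.27 CPM in sum, Cd3d at 0 in knock-in libraries). Of 19 stromal markers tested 0 were called there by edgeR, 0 had an unadjusted p under 0.05 and 0 were called by DESeq2. The estimated share of stromal RNA was 5.46% to 18.9% in wild type and 4.67% to 21.6% in knock-in libraries. Of 4 osteoblast markers tested in hematopoietic libraries 3 were lower by edgeR, and DESeq2 called 4. Sums for the 6 listed were 100.8 to 724.9 CPM in wild type and 74 to 196.1 CPM in knock-in libraries. In the mesenchymal population 1 of 20 stromal markers was lower, Lox, with 6 at an unadjusted p under 0.05 and 5 called by DESeq2. There 3 of 5 osteoclast markers tested were higher and 4 of 4 osteoblast markers lower (1133 to 3086 against 461 to 985 CPM for the 6 listed). The part of these markers' cells in the differences of Syk, Abl1 and Vav3 was not tested.

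**Figure D3:**
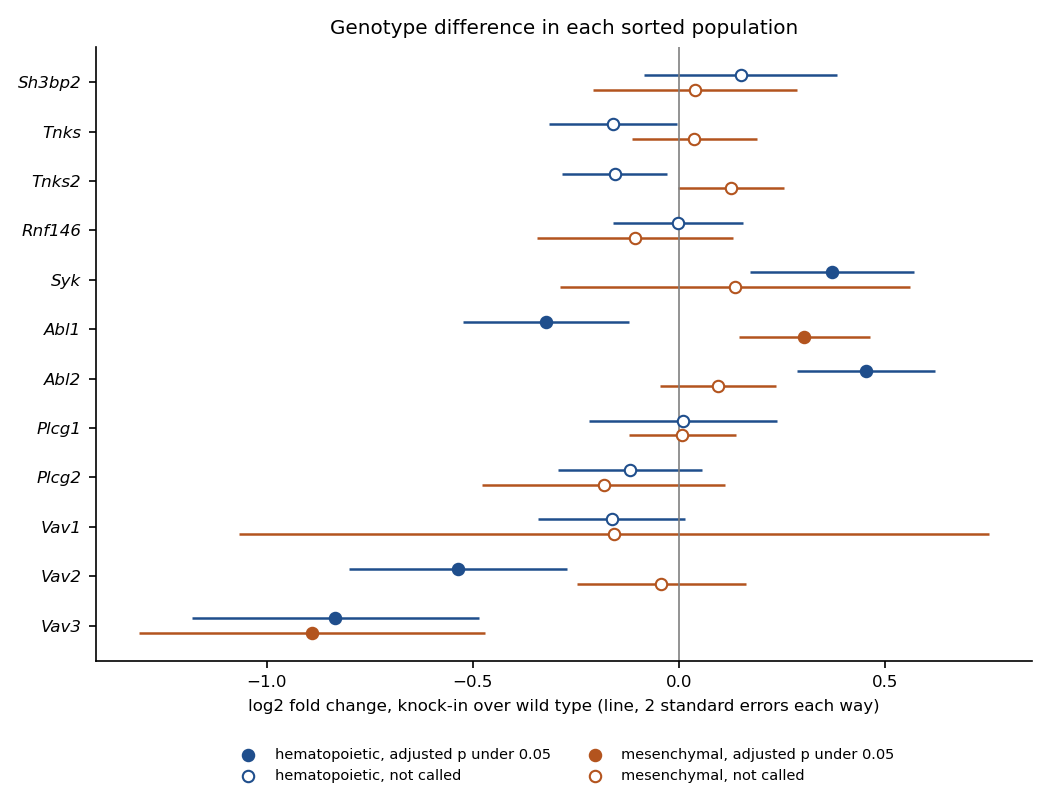
Log2 fold change of knock-in over wild type for the 10 members and the relatives Vav2 and Abl2, in hematopoietic (blue) and mesenchymal (orange) libraries; filled points passed an adjusted p of 0.05, open points did not, and lines reach 2 standard errors each way. Vav3 lies to the left in both populations, while the points of Abl1 lie on opposite sides of 0 at -0.32 and 0.30.

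Syk (chr13:52583173-52648792, plus strand) encodes the kinase that docks on phosphorylated ITAM motifs of immune receptor adaptors. It read 298.4, 330.6 and 377.8 CPM in the wild type and 358.5, 408.7 and 527.9 CPM in the knock-in hematopoietic libraries. The knock-in libraries were higher, with 1 of them inside the wild type range. The log2 fold change was 0.37 (1.29-fold, SE 0.099, adjusted p = 0.022 by edgeR). The call was kept in all 12 fits that leave out 1 library. It was not given when all 24 libraries entered 1 fit (log2 0.36, adjusted p = 0.109), nor by set C1 alone (0.23, adjusted p = 0.271) or set C2 alone (0.53, adjusted p = 0.154).

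In mesenchymal libraries Syk read 6.57, 8.13 and 8.58 CPM in the wild type and 4.53, 8.26 and 14.1 CPM in knock-in ones. These overlapped, with the knock-in libraries spread to both sides of the wild type range (log2 0.14, SE 0.213, adjusted p = 0.764). The knock-in differences of the 2 populations were not shown to differ (interaction -0.23, SE 0.226, adjusted p = 0.658). Syk stood at 2.35% and 2.02% of its hematopoietic level in mesenchymal cells and above the level of the leukocyte share in 6 of 6 libraries of each genotype. Zap70, the related kinase of T cells, stayed at or under 1.25 CPM in each of the libraries and was not tested.

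Of 28 receptors, adaptors and kinases that act with SYK, 4 were higher, 5 lower and 17 not called among 26 tested in knock-in hematopoietic cells, where 15.9% of all genes were called. The list's median log2 fold change was -0.16. Src, the kinase that starts ITAM phosphorylation in osteoclasts, went from 18.7 CPM in wild type to 128.6 CPM in the knock-in (log2 2.81, SE 0.301, adjusted p = 0.000123). Fgr, a SRC-family kinase of myeloid cells, was at 22.8 and 95.6 CPM (log2 2.08, SE 0.278, adjusted p = 0.000477). Itgb3, the beta-3 integrin chain of osteoclasts and platelets, was at 20.9 and 127.5 CPM (log2 2.60, SE 0.467, adjusted p = 0.00294). These 3 genes had no overlap between the genotypes, and Itgb3 is also in the osteoclast marker list. Their choice by the smallest adjusted p favours this, and the share of all genes without overlap was not counted. Pik3cd, a leukocyte PI3-kinase subunit, was lower, also with no overlap (log2 -0.36, SE 0.076, adjusted p = 0.00594).

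Among the ITAM adaptors, singled out after their values were seen, Fcer1g was lower (log2 -0.65, adjusted p = 0.0167) and Trem2, the receptor that pairs with DAP12, was lower as well (log2 -0.38, adjusted p = 0.0127). Tyrobp, which encodes DAP12, was not called (log2 0.06, adjusted p = 0.507). Of 14 inhibitors of SYK signalling, in a comparison where 15.9% of all genes were called, 2 were higher. They were Pilra, an inhibitory receptor (log2 0.68, adjusted p = 0.00502), and Ptpn22, a phosphatase (log2 0.56, adjusted p = 0.0119). In mesenchymal cells Src was higher (log2 0.43, SE 0.073, adjusted p = 0.00323), Shc1, an adaptor to RAS, was lower (-0.32, adjusted p = 0.0248) and Cbl, a ubiquitin ligase of active kinases, was higher (0.25, adjusted p = 0.0347). These were all the calls there among 20 and 13 tested genes of the 2 lists, beside 7.27% of all genes called.

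Abl1 (chr2:31688376-31804227, plus strand), the ABL tyrosine kinase, moved in opposite directions. In hematopoietic libraries it read 180.2, 219.5 and 266.9 CPM in the wild type and 157.6, 177.5 and 209.8 CPM in knock-in ones, lower by 0.80-fold (log2 -0.32, SE 0.101, adjusted p = 0.0469 by edgeR). In mesenchymal libraries it read 142.3, 151 and 175.8 CPM in the wild type and 158.8, 193.8 and 211.1 CPM in knock-in ones, higher by 1.23-fold (log2 0.30, SE 0.079, adjusted p = 0.0334 by edgeR). The genotypes overlapped in both populations. The interaction was 0.63 (SE 0.13, adjusted p = 0.00321 by edgeR).

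The call of the Abl1 interaction was kept in all 24 fits that leave out 1 library, with adjusted p up to 0.00759. The sets alone gave 0.69 (adjusted p = 0.123) and 0.58 (adjusted p = 0.236). The separate calls were weaker. The hematopoietic one was lost in 9 of 12 such fits, those without wild type replicates 1, 2, 4 or 6 or knock-in replicates 2 to 6 (adjusted p up to 0.117). The mesenchymal one was lost in 7 of 12, those without wild type replicates 1, 3, 5 or 6 or knock-in replicates 1, 2 or 6 (adjusted p up to 0.0822), and in the fit of all 24 libraries (0.0535). The sets alone gave -0.32 and -0.30 in hematopoietic and 0.32 and 0.28 in mesenchymal cells, none of them called (adjusted p 0.219 to 0.366). Among 9 other settings, the sets alone included, the hematopoietic call was kept in 7 and the mesenchymal one in 6. DESeq2 gave adjusted p of 0.0273 and 0.00916.

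Abl2, the other ABL kinase, went the other way in hematopoietic cells. It read 135.7, 166 and 190.8 CPM in the wild type and 198.1, 226.1 and 241.7 CPM in the knock-in libraries, with no overlap (log2 0.46, SE 0.083, adjusted p = 0.00266 by edgeR). Each set alone gave a like value, 0.43 (adjusted p = 0.143) and 0.50 (adjusted p = 0.0571). In mesenchymal cells it was not called (0.10, SE 0.07, adjusted p = 0.464), and the interaction was -0.35 (adjusted p = 0.051), called with the replicate number as a block (adjusted p = 0.037), by DESeq2 (0.0333) and in 4 of 24 fits that leave out 1 library (0.0265 to 0.0453). Per kilobase of exon, Abl1 made up 55.8% ± 5.91 (SD, n = 6) of the ABL pair in wild type and 42.5% ± 3.79 in knock-in hematopoietic libraries, in ranges that did not overlap (50.1% to 64.7% and 39.1% to 49.6%). The summed level of the pair was 34.6 ± 2.42 and 36 ± 1.32 CPM per kilobase. These shares were computed after the single genes were seen and carry no test.

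Of 11 ABL partners and substrates, Abl2 among them, 3 were higher and 1 lower in knock-in hematopoietic cells. Among all genes 15.9% were called there and 7.27% in mesenchymal cells. Rin1, an exchange factor that activates ABL kinases, was higher in both populations, from 5.25 to 11.1 CPM (log2 1.16, adjusted p = 0.00329) and from 34.5 to 58.3 CPM (log2 0.76, adjusted p = 0.00224). Bcar1, the docking protein p130CAS, was higher in hematopoietic cells (log2 0.57, adjusted p = 0.0372), and Abi2, an ABL interactor of the WAVE complex, was lower (-0.35, adjusted p = 0.0102). Of 7 genes for 14-3-3 proteins, which bind phosphorylated SH3BP2, Ywhah alone was called in hematopoietic cells (log2 0.41, adjusted p = 0.00327), and 0 were called by edgeR in mesenchymal cells, with 1 at an unadjusted p under 0.05 and 1 called by DESeq2.

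The phospholipases divided by population. Plcg2 (chr8:117498291-117635142, plus strand), the phospholipase C gamma of blood cells, read 255.6, 290.1 and 364.6 CPM in the wild type and 240.1, 267 and 325.9 CPM in the knock-in hematopoietic libraries. Mesenchymal libraries held 8.42, 9.8 and 11.4 CPM and 6.21, 8.94 and 11 CPM. The population differences were -4.90 and -4.96 on the log2 scale (adjusted p = 1.91e-19 and 2.34e-19), with no overlap. Plcg1 (chr2:160731300-160775760, plus strand), the form found in most cell types, read 27.3, 32.7 and 46.7 CPM and 29, 33.2 and 40.5 CPM in hematopoietic libraries. In mesenchymal libraries it read 92.6, 99 and 118.4 CPM and 94.1, 99.5 and 113.1 CPM. It was thus 2.98-fold and 2.99-fold higher in mesenchymal cells (log2 1.58, adjusted p = 2.97e-13 and 2.89e-13).

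Per kilobase of exon, Plcg2 made up 94% ± 1.09 (SD, n = 6) of the pair in wild type hematopoietic and 15.2% ± 2.54 in wild type mesenchymal libraries, and 93.5% ± 1.24 and 13.5% ± 2.8 in knock-in ones. The summed level of both was 73.8 ± 9.01 CPM per kilobase in wild type hematopoietic and 15.3 ± 1.23 in wild type mesenchymal libraries. The stromal share of hematopoietic libraries would give 10 and 10.8 CPM of Plcg1 on average in wild type and knock-in libraries, and every library lay above its own such level.

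Neither phospholipase was called between the genotypes. The log2 fold changes of Plcg2 were -0.12 (SE 0.087, adjusted p = 0.419) and -0.18 (SE 0.148, adjusted p = 0.514) in hematopoietic and mesenchymal cells. Those of Plcg1 were 0.01 (SE 0.114, adjusted p = 0.963) and 0.01 (SE 0.065, adjusted p = 0.955), with intervals of 2 SE from -0.22 to 0.24 and from -0.12 to 0.14. Of 11 family relatives of the members, 4 were higher, 2 lower and 3 not called among 9 tested in knock-in hematopoietic cells. Their median was 0.07, and 15.9% of all genes were called there. In mesenchymal cells 0 of 8 relatives were called by edgeR, beside 7.27% of all genes. There 1 of the 8 had an unadjusted p under 0.05 and 1 was called by DESeq2. Abl2 was 1 of the higher genes and Vav2 1 of the lower, and the others called were further phospholipase C genes. Plcb4 was at 36.9 CPM in the wild type and 107.5 CPM in the knock-in libraries (log2 1.57, SE 0.15, adjusted p = 5.01e-05). Plcd3 was at 1.17 and 3.7 CPM (log2 1.69, adjusted p = 0.000472), and Plcb2 at 44 and 67.2 CPM (log2 0.62, adjusted p = 0.0103). Plcb1 was lower, at 65 and 43.7 CPM (log2 -0.51, adjusted p = 0.0271).

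Downstream of phospholipase C gamma, 5 of 32 calcium, NFAT and diacylglycerol genes were higher and 3 lower in knock-in hematopoietic cells. The list's median was -0.05, and 15.9% of all genes were called. Nfatc1, the master transcription factor of osteoclasts, was at 251.4 CPM in the wild type and 612.5 CPM in the knock-in libraries (log2 1.30, SE 0.209, adjusted p = 0.00133). Rcan1, a calcineurin inhibitor that NFAT itself induces, was at 40.7 and 69.2 CPM (log2 0.78, SE 0.106, adjusted p = 0.000387). Orai2, a calcium channel subunit, was at 32.2 and 58.8 CPM (log2 0.89, adjusted p = 0.00099). Rasgrp3, a RAS activator that binds diacylglycerol, was at 27 and 10.9 CPM (log2 -1.30, adjusted p = 0.00302). These 4 genes had no overlap between the genotypes. They were picked by the smallest adjusted p, which favours this, and the share of all genes without overlap was not counted.

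In mesenchymal cells 2 of 29 tested genes of this list were higher and 1 lower, beside 7.27% of all genes called. Itpr3, an IP3 receptor, rose by 0.35 (adjusted p = 0.0219) and Nfatc4 by 0.40 (adjusted p = 0.0322). Rasgrp2 was lower at means of 1.43 and 0.367 CPM (log2 -1.87, adjusted p = 0.0448).

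Of the 10 members Vav1 had the largest log2 difference between the populations, -8.06 in wild type and -8.04 in knock-in cells, and Vav3 the largest difference between the genotypes. VAV proteins are exchange factors that switch on RAC and related GTPases once SYK has phosphorylated them. Vav1 (chr17:57279100-57328031, plus strand) read 261.5, 288.8 and 352.1 CPM in the wild type and 231, 255.2 and 304.9 CPM in the knock-in hematopoietic libraries. In mesenchymal libraries it read 0.779, 0.844 and 1.74 CPM and 0.352, 0.71 and 2.19 CPM, from 4 to 27 counts per library. It stood at 0.37% and 0.372% of its hematopoietic level, and above its library's leukocyte share in 3 of 6 wild type and 0 of 6 knock-in libraries. The genotype difference in hematopoietic cells was -0.16 (SE 0.089, adjusted p = 0.257). With the replicate number as a block it was called (adjusted p = 0.0477).

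Vav3 (chr3:109340653-109685698, plus strand) read 369.5, 465.9 and 631.5 CPM in the wild type and 207.4, 243 and 369.6 CPM in the knock-in hematopoietic libraries. The highest knock-in library reached the lowest wild type library, and the groups otherwise stood apart. The means were 483.8 ± 101.8 and 268.2 ± 67.8 CPM (SD, n = 6 each), a 0.561-fold level (log2 -0.83, SE 0.174, adjusted p = 0.00607 by edgeR). The call was kept in all 12 fits that leave out 1 library. Set C1 alone gave -0.88 (adjusted p = 0.0739) and set C2 alone -0.77 (adjusted p = 0.164).

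In mesenchymal libraries Vav3 read 5.43, 8.14 and 15.4 CPM in the wild type and 3.12, 4.65 and 6.42 CPM in knock-in ones, a 0.539-fold level with overlap (log2 -0.89, SE 0.21, adjusted p = 0.0204 by edgeR). This rested on at least 78 counts in each wild type and 47 to 78 in each knock-in library. The call was lost without wild type replicate 6 (adjusted p = 0.0536). It was also lost after subtraction of the leukocyte share (log2 -1.14, adjusted p = 0.0943), and in set C1 (-0.997, adjusted p = 0.143) and set C2 alone (-0.79, adjusted p = 0.27). Every library lay above the level of its leukocyte share, which averaged 2.07 and 1.68 CPM. The interaction for Vav3 was -0.06 (SE 0.28, adjusted p = 0.946).

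Vav2, the broadly expressed relative, was lower in knock-in hematopoietic cells too, at 94.6, 155.1 and 175.4 CPM in the wild type and 83.6, 91.7 and 131 CPM in the knock-in libraries (log2 -0.54, SE 0.133, adjusted p = 0.0152 by edgeR). The groups overlapped, and the sets alone gave -0.66 (adjusted p = 0.0535) and -0.40 (adjusted p = 0.355). In mesenchymal cells it was not called, at means of 60.8 ± 4.63 and 59 ± 12.3 CPM (log2 -0.04, SE 0.102, adjusted p = 0.861). The knock-in differences of Vav2 in the 2 populations were not shown to differ (interaction 0.50, SE 0.173, adjusted p = 0.0832 by edgeR). The interaction stayed uncalled in 21 of 24 fits that leave out 1 library, and the lowest adjusted p was 0.0224.

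Per kilobase of exon, Vav1 and Vav3 made up like shares of the 3 VAV genes in wild type hematopoietic libraries, 44.3% ± 3.77 and 44.1% ± 2.92 (SD, n = 6). In knock-in ones Vav1 made up 54.9% ± 3.92 and Vav3 34.1% ± 3.79, and neither range overlapped that of wild type. The summed level of the 3 genes was 181.5 ± 27.6 and 129.5 ± 19.9 CPM per kilobase. In mesenchymal libraries Vav2 made up 83.1% ± 4.02 and 88.6% ± 2.59 of a summed level of 10.6 ± 1.14 and 9.61 ± 1.84 CPM per kilobase. As for the ABL pair, these shares are a description with no test.

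**Figure D4:**
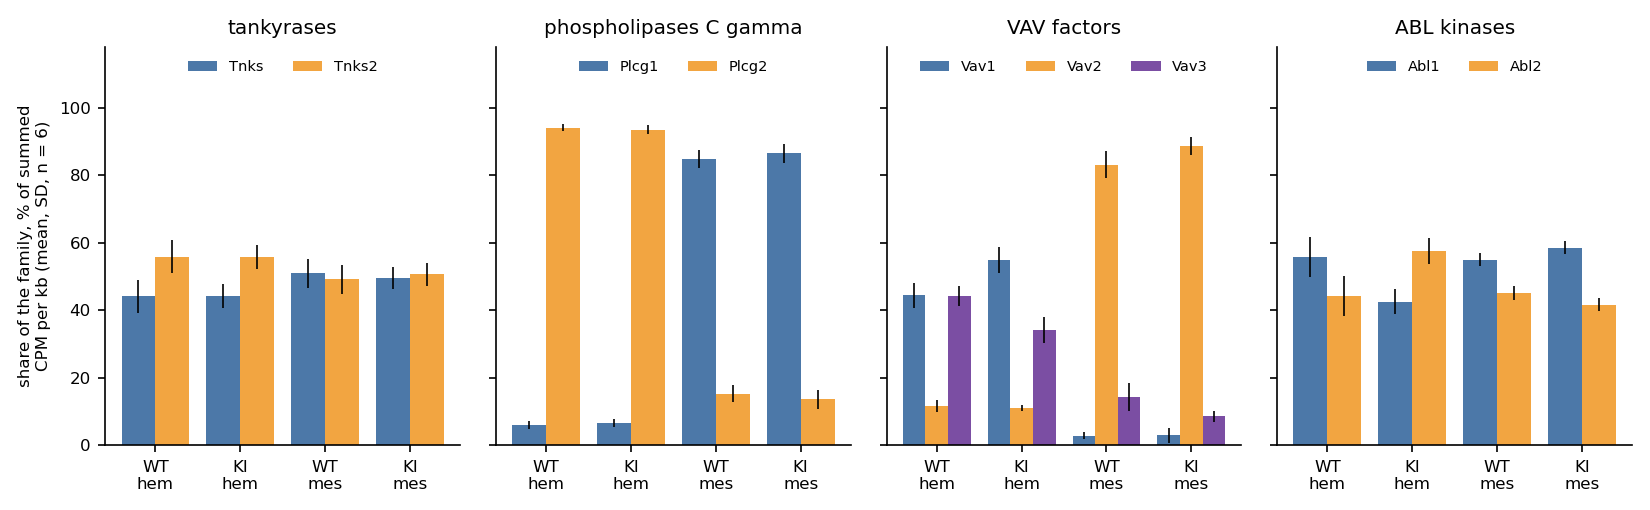
Share of each gene in the summed CPM per kilobase of exon of its family, as the mean and SD of 6 libraries, by genotype and population (WT, wild type; KI, knock-in; hem, hematopoietic; mes, mesenchymal). Plcg2 and Plcg1 change places between the populations, Vav2 makes up 83.1% and 88.6% of the VAV genes in mesenchymal libraries, and the share of Vav3 is lower in knock-in than in wild type hematopoietic libraries.

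Of 17 small GTPases and effectors of VAV, 1 was higher and 4 lower in knock-in hematopoietic cells, Vav2 among the latter. Among all genes 15.9% were called there and 7.27% in mesenchymal cells. Rac2, the RAC of blood cells, was higher (76.5 and 107.1 CPM, log2 0.50, adjusted p = 0.00614). Elmo1 and Dock2, which together form another exchange factor for RAC, were lower, Elmo1 at 1481 and 934.1 CPM (log2 -0.64, adjusted p = 0.0166) and Dock2 at 1119 and 766.2 CPM (log2 -0.53, adjusted p = 0.0308). Elmo1 was also the single call among 15 tested in mesenchymal cells, at 191.2 and 103.3 CPM (log2 -0.85, SE 0.229, adjusted p = 0.0448). Rac1, the broadly expressed RAC, was not called in either population (adjusted p = 0.233 and 0.997), singled out after its values were seen.

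Ranked by CPM per kilobase of exon, the members ran in wild type hematopoietic libraries from Vav3 (80.6 ± 17, SD, n = 6), Vav1 (79.8 ± 8.49) and Plcg2 (69.4 ± 8.66) through Sh3bp2 (49.3 ± 5.96), Syk (35.8 ± 4.14), Tnks2 (22.6 ± 2.06), Abl1 (19.3 ± 2.92) and Tnks (17.9 ± 2.5) to Rnf146 (12.1 ± 0.914) and Plcg1 (4.38 ± 0.877). Neighbours overlapped between Vav3, Vav1 and Plcg2, between Sh3bp2 and Syk, and between Tnks2, Abl1 and Tnks, and stood apart elsewhere. In knock-in hematopoietic libraries Vav3 ranked 5 at 44.7 ± 11.3, below Syk at 45.6 ± 6.27 and overlapping it. The adaptor at 54.2 ± 8.51 overlapped Plcg2 above it and Syk below it.

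In mesenchymal libraries the order began with the tankyrases, in wild type Tnks (21.2 ± 2.33) and Tnks2 (20.4 ± 1.98), which overlapped. Abl1 (13.2 ± 1.07) and Plcg1 (13 ± 1.39) followed and overlapped, then Rnf146 (9.51 ± 1.2). After a step came Plcg2 (2.31 ± 0.272), Sh3bp2 (1.73 ± 0.162), Vav3 (1.53 ± 0.602) and Syk (0.84 ± 0.0839), each overlapping its neighbour, and Vav1 (0.295 ± 0.116). Tankyrase RNA per kilobase thus exceeded that of Sh3bp2 in mesenchymal cells, while the reverse held in hematopoietic cells, in both genotypes.

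The genes whose pattern lay nearest to Sh3bp2 were found by the root mean square difference of log2 CPM (pseudocount 0.5), each gene centred on its own mean over the 24 libraries, among 11937 other genes averaging 1 CPM or more. They were Ebi3, a cytokine subunit, at 0.25, Cyba, a subunit of the phagocyte oxidase, at 0.26, Nceh1, a cholesterol ester hydrolase of macrophages, at 0.26, Plcg2 at 0.27 and Arhgdib, an inhibitor of small GTPases in blood cells, at 0.29. Among the other members Syk ranked 85 (0.47), Vav3 265 (0.71) and Vav1 1054 (1.46), and the tankyrases, Rnf146, Abl1 and Plcg1 ranked 4084 or lower. This order is set mostly by the gap between the populations. Ebi3 averaged 14.7 CPM in wild type hematopoietic and 0.0349 CPM in wild type mesenchymal libraries, the latter under the pseudocount, so its likeness to Sh3bp2 (211.9 and 7.421 CPM) holds on this scale and not for the fold between the populations. Within the 12 hematopoietic libraries the nearest were Adap1, Card19, Elk3, Katnbl1 and Uhrf2, at 0.11 each, and there Vav1 and Plcg2 ranked 1225 and 1242 (0.21 each), Syk 2300 (0.24) and Tnks 2405 (0.24).

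Promoters were examined because 5 members shared the hematopoietic pattern. RefSeq windows of the 250 bases before the start (GRCm38.p6) were found for 9 of 10 members, 15 windows in all, and Tnks had no entry in the table. They were searched on both strands for GAGGAA, a PU.1-type form of the sites bound by ETS factors. Of 32851 promoter windows of this length 23.3% held it. Other forms of ETS site were not searched. Of the 5 members high in hematopoietic cells 3 had GAGGAA in at least 1 window (4 of 9 windows). Of the other 4 members 1 did (1 of 6 windows). A match is a description of these letters and not of a bound site. The 3 were Sh3bp2, Vav1 and Syk, with 6, 5 and 3 bases between the box and the start, and a further window of Sh3bp2 held the box with 170 bases between. The nearer windows of Sh3bp2 and Vav1 are shown, and not that of Syk, of which 29 bases are annotated exon. The window of Plcg2, the member nearest to Sh3bp2 in pattern, is shown because it holds no GAGGAA on either strand. The box is in capitals.
Sh3bp2, chr5:34543115-34543364, plus strand: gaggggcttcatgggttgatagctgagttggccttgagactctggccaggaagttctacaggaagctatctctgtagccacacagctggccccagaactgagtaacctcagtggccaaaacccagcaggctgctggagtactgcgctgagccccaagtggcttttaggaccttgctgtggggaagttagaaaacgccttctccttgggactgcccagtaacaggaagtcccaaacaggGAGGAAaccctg
Vav1, chr17:57278850-57279099, plus strand: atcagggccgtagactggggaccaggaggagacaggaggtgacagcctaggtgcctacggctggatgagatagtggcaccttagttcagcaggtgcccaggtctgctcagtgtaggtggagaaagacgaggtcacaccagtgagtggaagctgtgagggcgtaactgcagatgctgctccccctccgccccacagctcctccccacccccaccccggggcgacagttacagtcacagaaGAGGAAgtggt
Plcg2, chr8:117498025-117498274, plus strand: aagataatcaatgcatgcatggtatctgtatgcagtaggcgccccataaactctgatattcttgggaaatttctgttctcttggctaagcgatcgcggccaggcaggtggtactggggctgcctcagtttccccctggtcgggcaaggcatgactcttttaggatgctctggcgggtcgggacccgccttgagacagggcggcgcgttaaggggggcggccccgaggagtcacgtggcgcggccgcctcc
The Sh3bp2 window lies inside the annotated gene, before a start that RefSeq gives, and the 3 windows shown hold 0 bases of exons of their own gene in GENCODE M21.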

How the data were processed

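RNA was measured in 24 libraries of sorted cells from day 7 cultures. Per the labels' protocols, ribosomal RNA was removed with RiboGone, libraries were made with a SMARTer Stranded kit and paired ends were read on a NextSeq. Each deposited file holds the raw read count of every gene in 1 library. The submitters' processing notes name GRCm38 (mm10), HTSeq 0.9.1, DESeq2 1.20.0, MultiQC and FastQC 0.11.7. They name no aligner, though a part of the file names reads RNASTAR. Of 54232 identifiers 54165 matched GENCODE M21, from which symbols and coordinates were taken, and 31499 had at least 1 count. Totals ran from 9875390 to 15826711. Replicates of a group differed by more than counting noise in every pair (chi-square per degree of freedom 7.23 to 65), and none was merged.

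Tests were run in R 4.3.3 with edgeR 4.0.16 (filterByExpr with minimum count 10 and minimum total 15, TMM, robust quasi-likelihood test, Benjamini-Hochberg, threshold 0.05). The genotypes were compared on 12 libraries, those of 1 population, and the population comparisons and the interaction used all 24. A term for the set (C1 or C2, a prefix of the file names whose meaning no label states, with 3 libraries of each group in each) was in the fits, alternatives without it aside. Intervals are 2 SE each way and cover the spread between these libraries. RNA carried from the opposite population was estimated as the median, over markers averaging at least 10 CPM in the population they mark (17 stromal or 14 leukocyte in wild type), of their level relative to the population they mark in the same genotype. An alternative took that fraction of the opposite population's mean counts away from each library. The tests were also run on simulated data with known changes, where changes of small size were often missed, so that a gene not called may still differ.

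Same-numbered wild type and knock-in libraries deviated together in the hematopoietic population, with correlations of 0.523, 0.356, 0.494, 0.234, 0.147 and 0.563 for numbers 1 to 6 after group and set means were removed. No label states what the number marks, and a value from the fit with the number as a block is given where it changes a call. The alternatives were RLE size factors, DESeq2 1.42.0, no filter, the replicate block, no set term, each set alone, other sets of libraries in a fit, the subtraction and leaving out each library.

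The members and lists were chosen with earlier results of these data known, and lists are described by counts and medians. The text names all 10 members, Vav2, Abl2, Zap70 and Ptprc. From each of the 9 pathway lists it names up to 4 called genes with the smallest adjusted p in each genotype comparison, and it adds the 5 genes nearest Sh3bp2 over all libraries and over the hematopoietic ones, without predicted genes, pseudogenes and clone names. A lack of overlap between genotypes is not marked for every gene named. Plcb4, Plcd3, Pilra, Abi2 and Ywhah in hematopoietic cells and Nkd2, Grb14, Src and Rin1 in mesenchymal cells had none either. Choice by adjusted p favours this, for Mcl1 as well. Adprs of the ADP-ribose list was matched under its older symbol Adprhl2. Of all genes tested, edgeR called 15.9% in hematopoietic and 7.27% in mesenchymal cells. Of the marker lists not described with the results, in hematopoietic cells leukocyte markers had 2 higher and 3 lower calls of 14 tested, neutrophil 0 of 6 (0 at an unadjusted p under 0.05 and 0 by DESeq2), mast cell 0 of 1 (1 and 0), erythroid 1 lower of 2 and endothelial 0 of 4 (0 and 0). In mesenchymal cells 1 of 2 mast cell markers was higher, and the calls were leukocyte 0 of 9 (2 and 1), macrophage 0 of 12 (3 and 0), B lineage 0 of 1 (0 and 0), neutrophil 0 of 1 (1 and 0), erythroid 0 of 1 (0 and 0) and endothelial 0 of 5 (0 and 0). Protein sequences were not used here.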

Additional observations from a re-analysis of the deposited data

Results flagged for a closer look

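The level of Sh3bp2 in wild type hematopoietic replicate 3 was 162.6 CPM, while the nearest other library of the group had 210.7 CPM and the highest 233.8 CPM. That gap was 0.675 of the group's range, past Dixon's 95% critical value for 6 samples. It was the only such value among 40 sets of 6 examined (10 genes in 4 groups), and chance flags about 1 set in 20. The same library had the highest estimated share of stromal RNA in its group, 18.95% against 5.455% to 9.421% in the other 5. Knock-in replicate 3, with a share of 21.59%, read 213.4 CPM and was not the lowest of its group. The part of stromal RNA in these levels was not tested. Without wild type replicate 3 the log2 fold change of Sh3bp2 in hematopoietic cells was 0.081 (adjusted p = 0.665 by edgeR, 0.15 with it), not called in either case.

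The knock-in difference of Abl1 was tested to differ between the populations, with an interaction of 0.632 on the log2 scale (adjusted p = 0.00321, edgeR). It was lower in knock-in hematopoietic and higher in knock-in mesenchymal libraries. The same test gave 0.29 for Tnks2 (adjusted p = 0.0439), whose difference was called in neither population alone.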

How the results depend on the processing

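Under other settings 105 counts of called genes stayed within 1.5 times the reported count and 8 did not. DESeq2 called 1620 genes in mesenchymal cells in place of 1008. Set C1 alone called 672 genes between the hematopoietic genotypes, 391 between the mesenchymal ones and 180 as interaction, and set C2 alone called 218, 76 and 138, with 3 libraries a group. The share of higher calls in the sets alone was 62.1% and 73.4% for hematopoietic cells (56.7% with both sets), 28.6% and 27.6% for mesenchymal cells (47.3%) and 31.1% and 16.7% for the interaction (40.1%). Leaving out 1 library gave 1745 to 2206 hematopoietic calls, 646 (without knock-in replicate 1) to 1036 mesenchymal calls and 937 to 1166 for the interaction.

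Of the members' values, with Vav2 and Abl2, 1195 kept direction and call, 84 lost a call, 10 gained one and 66 changed sign. All 66 were of values not called, in 15 results, and the cause was not tested. For Plcg1 the hematopoietic difference became -0.155 in set C1 alone, -0.001 without the set term, -0.003 in 1 fit of all libraries and -0.054 after subtraction. Its mesenchymal difference became -0.069 in set C1 and -0.002 without the filter, and its interaction -0.122 in set C2 and -0.013 without the filter. In set C1 alone the interactions of Syk and Plcg2 became 0.007 and 0.099 and the mesenchymal difference of Vav2 0.002. In set C2 alone Rnf146 became 0.135 in hematopoietic and 0.123 in mesenchymal cells, Tnks -0.012 in mesenchymal cells, and the interactions of Sh3bp2 and Vav1 0.033 and -0.147. After subtraction Rnf146 became 0.002 in hematopoietic cells, and Sh3bp2 and Syk became -0.08 and -0.118 in mesenchymal cells. Leaving out 1 library changed signs within -0.034 to 0.103 for Plcg1 and -0.017 to 0.069 for Rnf146 in hematopoietic cells. In mesenchymal cells the ranges were -0.007 to 0.083 for Sh3bp2, -0.021 to 0.061 for Tnks, -0.048 to 0.266 for Syk, -0.01 to 0.049 for Plcg1 and -0.622 to 0.061 for Vav1. For the interaction they were -0.078 to 0.059 for Plcg1, -0.13 to 0.028 for Plcg2, -0.354 to 0.225 for Vav1 and -0.169 to 0.107 for Vav3.

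With the replicate number as a block 3315 genes were called in hematopoietic and 1258 in mesenchymal cells, 11444 and 11370 between the populations in wild type and knock-in cells, and 1331 for the interaction. The block changed no other call of a member than those given. In mesenchymal cells the correlations of same-numbered libraries were 0.321, 0.316, 0.61, 0.228, -0.008 and 0.059, with 4 of 6 over 0.1, so that the rule of every pair over 0.1 was not met there and the pairing was not settled. In hematopoietic cells every pair was over 0.1 and the rule was met. The reported tests still leave the number out, since no label states what it marks. With the block, adjusted p by edgeR in hematopoietic cells was 0.012 for Syk, 0.00633 for Abl1, 4.26e-05 for Vav3 and 0.198 for Sh3bp2. Not every library correlated best with its own number in either population. Vav1 had too few counts in mesenchymal cells for a value after subtraction. Depth limits Vav1 there, at 4 to 27 counts per library.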
